A study of Mus musculus with 14 samples.

Results

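The 30 genes described here are microglial genes whose transcripts stood highest in retinal microglia at postnatal day 7 (P7), out of 20902 genes measured. They were picked by their measured levels, in CPM (the count of a gene scaled by the total count of its library to a common size). A gene entered when its mean in P7 microglia was at least 20 CPM, at least 2-fold the mean at embryonic day 16.5 (e16.5) and at least 2-fold the mean at P60. Its lowest P7 library also had to lie above the highest of the other 6 microglia libraries, and its P7 mean had to be at least 3-fold the whole retina value at P7. These conditions left 42 genes, of which 12 were set aside by name: Spp1, Igf1, Lpl, Apoe, Abca1, Nceh1, Ctsb, Ctsl, Csf1, Timp2, Myo1e and Slc12a2. The height at P7 is therefore how the genes were chosen, and values at P7 are given below as a description without a test.

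RNA was sequenced from 14 C57BL/6 mouse libraries, 9 of sorted retinal microglia and 5 of whole retina. Microglia came from Cx3cr1-GFP mice, in which the fractalkine receptor locus drives green fluorescent protein, and were sorted as cells positive for GFP and CD45 and negative for CCR2, with 3 libraries for the embryonic age e16.5, 3 for P7 and 3 for the adult age P60. Each microglia library was a pool, of 1 to 2 litters at e16.5, 5 to 12 retinas at P7 and 7 to 14 retinas at P60. Whole retina came from wild-type (WT) mice, with 3 libraries of central retina at e16.5 and a lone library at each later age, so that genotype, sorting and RNA kit cannot be told apart from tissue. By its title the study asks about a passing state of developing retinal microglia that resembles disease, and the age groups ask how the cells differ between embryo, the postnatal week in which retinal neurons are culled and refined, and adult.

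Microglia are the resident macrophages of the nervous system, and in the postnatal retina they clear dying neurons and surplus synapses. Engulfed material is carried through endosomes to lysosomes, where acid hydrolases digest proteins, lipids and nucleic acids in compartments whose membranes carry glycoproteins and tetraspanins. MITF and its relatives TFEB, TFE3 and TFEC are basic helix-loop-helix factors that bind the E-box CACGTG and are known to drive many lysosomal genes.

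Microglia libraries held 8996298 to 17446905 counts and whole retina libraries 20469100 to 24361772. The microglial receptor gene Csf1r averaged 3551 CPM in the sorted cells of the embryo, 3875 at P7 and 3431 in the adult, and was at no more than 15.4 CPM in whole retina. Other cell types were searched for with marker lists. The 12 monocyte genes summed to 83.9 to 189 CPM at e16.5, 249 to 361 at P7 and 127 to 276 at P60, or, without Fn1, to 61.7 to 140, 93.8 to 205 and 110 to 249 CPM. Of the defining monocyte genes, Ccr2 averaged 10.6, 10.5 and 11.9 CPM, and Ly6c2 reached at most 0.350, 0.442 and 2.98 CPM in the same order of ages. The marker gene Plac8 had means of 0.0587, 1.29 and 10.5 CPM. Its adult microglia libraries ran from 0 to 30.4 CPM and overlapped those of P7, at 0.290 to 2.06 CPM. The 10 border-associated macrophage genes summed to 266 to 540 CPM at e16.5, 274 to 355 at P7 and 168 to 262 at P60. The 17 rod genes summed to 35.1 to 66.5 CPM in the sorted cells at e16.5, 405 to 625 at P7 and 854 to 6078 at P60, against 15423 CPM in whole retina at P7 and 75415 at P60. The 16 retinal progenitor genes summed to 578 to 742 CPM in sorted cells at e16.5, against 7748 to 8336 in whole retina. At P7 and P60 they summed to 153 to 276 and 194 to 213 CPM in microglia. Without Ccnd1 the e16.5 sums were 310 to 420 CPM in microglia and 3788 to 4030 in whole retina. The 14 ganglion cell genes summed to 192 to 404 CPM in microglia at e16.5, against 2671 to 2891 in whole retina. The 14 Mueller glia and astrocyte genes summed to 1103 to 1360.4 CPM in the embryo, 2279 to 3434 at P7 and 958 to 1157 in the adult, and without Apoe, which microglia express, to 767 to 935, 886 to 1243 and 783 to 1042 CPM. The oligodendrocyte and Schwann cell genes summed to 70.8 to 103, 246 to 404 and 498 to 873 CPM, and without Pmp22 to 38.9 to 97.3, 52.3 to 82.9 and 59.7 to 131 CPM. The part of these cells in the members' values was not tested. Fewer cells of a type and less RNA per cell cannot be told apart in such pooled libraries.

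Together the 30 genes took 0.694% to 0.794% of all counts in the microglia libraries of e16.5, 1.39% to 2.21% at P7 and 0.551% to 0.894% at P60. In whole retina they took 0.0999% to 0.107% in the embryo, 0.113% in the P7 library and 0.176% in the adult. The P7 mean was 2.01 to 31.6 times the e16.5 mean, with a median of 3.01 over the genes, and 2.01 to 28.1 times the P60 mean, with a median of 3.54. Against whole retina at P7 it was 3.16 to 387 times as high over the 29 genes with a count there, with a median of 12.0. Gm15487 had 0 counts in that library, which allows up to 0.123 CPM (3 counts, counting error only), so that it was at least 392-fold higher in P7 microglia (at least 233-fold without P7 replicate 3). A 3-fold height over both other ages was met by 12 of the 30 genes, and a 5-fold height by 2, Cst7 and AF529169. Levels at P7 covered a wide range, with 5 genes above 1000 CPM, 18 above 100 CPM and the lowest, Tmem38b, at 27.7 CPM.

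**Figure D1:**
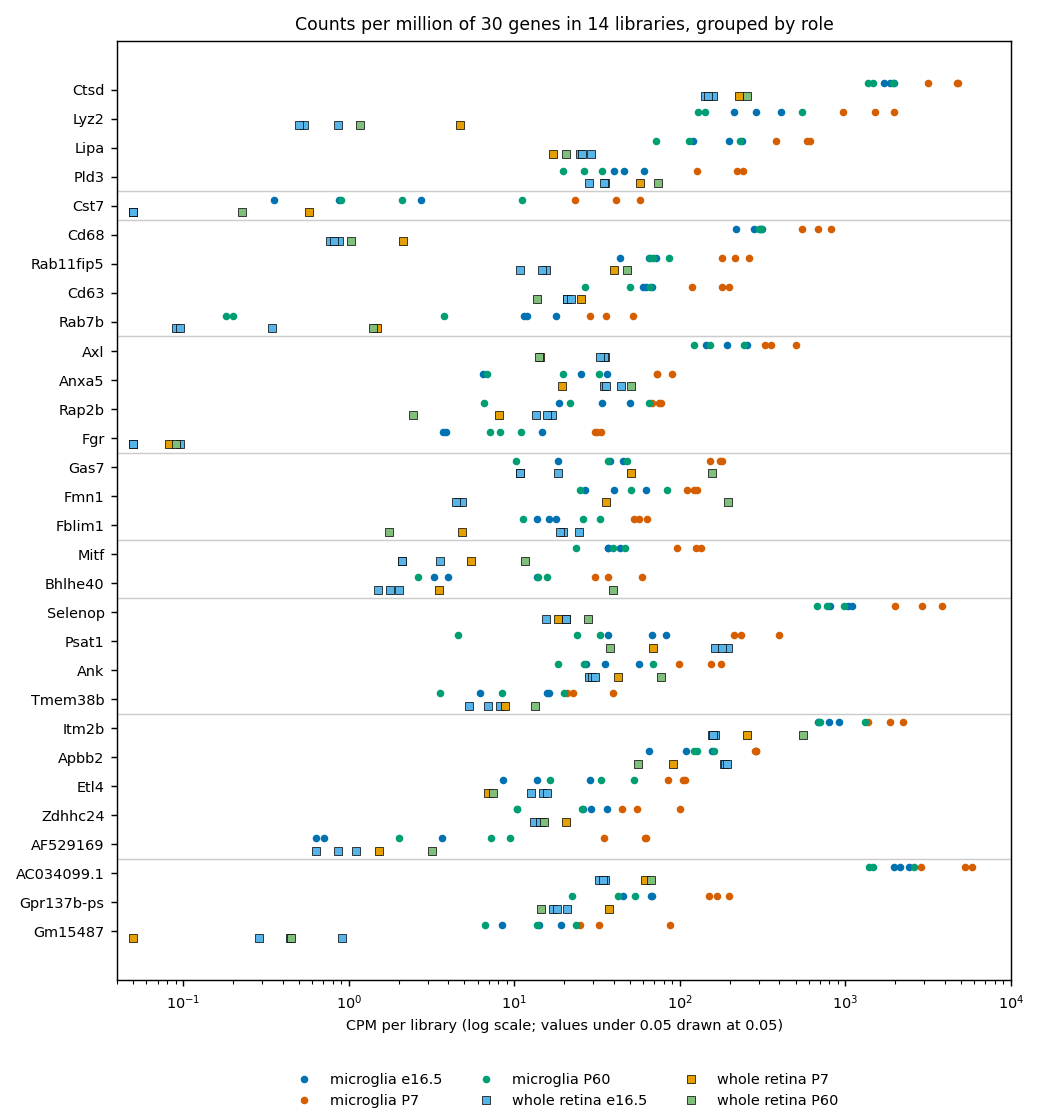
CPM on a log axis of each of the 30 genes (rows) in the 9 microglia libraries and the 5 whole retina libraries (points, coloured by group). Rows are grouped by role and ordered by mean P7 level within each role. The P7 microglia points lie to the right of the other microglia points in every row because the genes were chosen that way; the gap from the highest other microglia point to the lowest P7 point is widest for AF529169 (3.67-fold) and Gas7 (3.18-fold) and narrowest for Itm2b (1.04-fold).

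**Figure D2:**
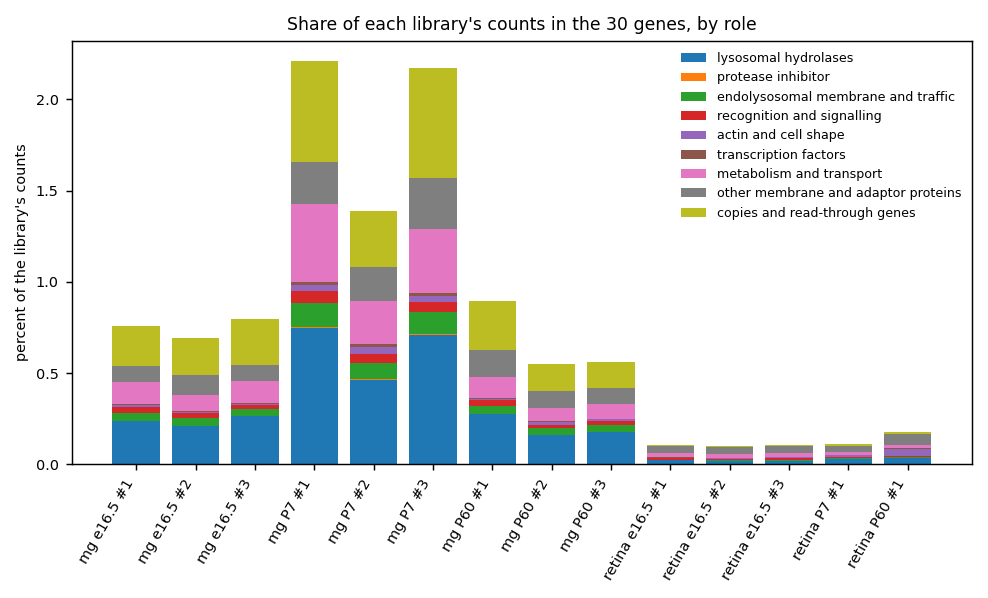
Percent of all counts taken by the 30 genes in each of the 14 libraries, stacked by role, with bars that start at 0. Ctsd is part of the lysosomal hydrolases and AC034099.1 part of the copies and read-through genes. The 3 P7 microglia libraries reach 1.39% to 2.21%, and P7 replicate 2 is the lowest of them.

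Apart from the limit on level, the genes just inside and just outside each limit lay close together. Tmem38b entered with 27.7 CPM at P7 and Ccrl2 missed with 18.8 CPM. Axl entered at 2.01-fold over e16.5 and Abcc3 missed at 1.99-fold, while Itm2b entered at 2.01-fold over P60 and Cndp2 missed at 1.95-fold. The lowest P7 library of Itm2b was 1.04 times the highest library of the other ages, that of Serpine2 0.997 times. Apbb2 stood 3.16-fold over whole retina and Reps2 2.83-fold.

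The P7 libraries differed among themselves in a shared way. P7 replicate 2 was the lowest of the 3 for 18 of the 30 genes, and P60 replicate 1 the highest of its age for 18. With P7 replicate 2 left out, 53 genes met the conditions, all 30 among them, and with P60 replicate 3 left out 29 did, 26 of them among the 30. Scaling the libraries with TMM factors (a trimmed mean of log ratios that sets the library scale) in place of total counts gave 48 genes and kept 29 of the 30, the exception being AC034099.1. On the authors' FPKM scale, which divides each count by a gene length and the depth, 44 genes met the conditions, 19 of them among the 30. The 11 that did not were AC034099.1, AF529169, Apbb2, Bhlhe40, Fblim1, Fgr, Fmn1, Itm2b, Rab7b, Rap2b and Tmem38b.

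In position the 30 genes were spread over 14 chromosomes, and 28 were annotated as protein-coding in GRCm38. Several share sequence with another gene, so that reads may be split or shared between them. AC034099.1 is a read-through gene (chromosome 7, 142371096 to 142382667, minus strand) that overlaps Ctsd and Ifitm10. Gm15487 and Gpr137b-ps are pseudogenes related to the proton pump gene Atp6v0c and the lysosomal membrane gene Gpr137b. Lyz2 has the close copy Lyz1.

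Promoters are shown for Ctsd, Cd68 and Selenop, 3 of the genes highest at P7, since each holds the binding letters of a different macrophage regulator. RefSeq promoters of build GRCm38.p6 were at hand for 23 of the 30 genes, in 34 windows, and each line gives the 250 bases before the transcript start, 5′ to 3′ on the gene's strand, at chr7:142387828-142388077 (minus strand), chr11:69666171-69666420 (minus strand) and chr15:3270517-3270766 (plus strand). Capitals mark the E-box CACGTG in Ctsd, the AP-1 motif (TGACTCA, here as its reverse complement TGAGTCA) in Cd68 and the PU.1 motif (GAGGAAGT, here as its reverse complement ACTTCCTC) in Selenop.
Ctsd: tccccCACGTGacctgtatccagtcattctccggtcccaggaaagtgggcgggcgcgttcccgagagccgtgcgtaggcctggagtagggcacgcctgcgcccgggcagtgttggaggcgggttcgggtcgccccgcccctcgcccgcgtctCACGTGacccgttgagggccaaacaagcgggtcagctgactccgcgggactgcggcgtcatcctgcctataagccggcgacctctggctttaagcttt
Cd68: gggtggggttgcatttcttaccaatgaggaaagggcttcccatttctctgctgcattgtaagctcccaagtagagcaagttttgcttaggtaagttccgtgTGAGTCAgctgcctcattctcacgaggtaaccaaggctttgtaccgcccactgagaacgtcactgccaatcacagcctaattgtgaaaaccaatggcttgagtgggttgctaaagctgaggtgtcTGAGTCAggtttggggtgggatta
Selenop: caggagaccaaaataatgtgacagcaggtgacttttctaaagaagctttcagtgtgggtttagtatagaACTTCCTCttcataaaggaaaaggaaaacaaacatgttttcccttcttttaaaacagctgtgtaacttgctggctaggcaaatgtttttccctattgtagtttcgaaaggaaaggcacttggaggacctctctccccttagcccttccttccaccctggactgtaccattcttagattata
The E-box stood at 2 places in the Ctsd window, 245 and 98 bases before the start, and TGAGTCA at 2 places in the Cd68 window, 149 and 24 bases before it.

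Counted over both strands, each motif was found in few of these windows. The E-box CACGTG was found in 2 of the 34 windows (5.88%; Ctsd and Etl4) and in 7.34% of all 16871 promoters of the same length. The AP-1 motif TGACTCA was in 2 windows (Cd68 and Fblim1) against 3.46% of all promoters, and the PU.1 motif GAGGAAGT in 2 overlapping windows of Selenop against 2.35%. The interferon regulatory factor motif GAAANNGAA was in 3 windows, of Pld3 and Selenop, against 6.51%, and the TATA box TATAAA in 4 against 8.39%. The C/EBP motif TTGCGCAA (0.225% of all promoters) and the MEF2 motif TATTTATA (1.23%) were in 0 of the 34 windows. A match is a description of letters in these windows and not a measured site.

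Lysosomal hydrolases are the enzymes that digest engulfed material, and 4 of the 30 genes encode them. Ctsd (ENSMUSG00000007891, chromosome 7, 142375911 to 142388038, minus strand) encodes cathepsin D, the main aspartic protease of the lysosome. Its libraries held 1849, 1714 and 1974 CPM at e16.5, 4697, 3167 and 4779.8 at P7 and 1948, 1369 and 1468 at P60, against 158, 141 and 148 CPM in whole retina at e16.5. The embryonic and adult microglia libraries overlapped, and all of them lay below the lowest P7 library. The P7 mean was 2.28-fold that at e16.5 and 2.64-fold that at P60. The read-through gene AC034099.1 had nearly the same course, with 2144, 1971 and 2415 CPM at e16.5, 5297, 2879 and 5784 at P7 and 2596, 1462 and 1381 at P60. Its P7 replicate 2 was only slightly above P60 replicate 1, and its counts cannot be told apart from those of Ctsd where the genes overlap. Without both genes, the other 28 took 0.326% to 0.362% of counts at e16.5, 0.784% to 1.21% at P7 and 0.268% to 0.440% at P60.

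Lyz2 (ENSMUSG00000069516, chromosome 10, 117277331 to 117282321, minus strand) encodes the macrophage lysozyme, which cleaves bacterial cell walls. It stood at 289, 211 and 408 CPM at e16.5, 1962, 972 and 1510.4 at P7 and 544, 129 and 141 at P60. P60 replicate 1 lay above all e16.5 libraries and the other P60 libraries below them, and the P7 mean was 4.89-fold and 5.46-fold the means of e16.5 and P60, the latter 10.99-fold without P60 replicate 1. Lipa, the acid lipase that frees cholesterol and fatty acids from engulfed lipoproteins, stood at 199, 120.5 and 238 CPM at e16.5, 614, 384 and 585 at P7 and 229, 71.4 and 113 at P60. The order of its P7 libraries was that of Lyz2 and Selenop, with replicate 1 highest and replicate 2 lowest. Pld3, an endolysosomal exonuclease of single-stranded nucleic acids, was at 60.4, 45.9 and 40.1 CPM at e16.5, 221, 128 and 242 at P7 and 26.5, 19.6 and 33.8 at P60. Its adult libraries were all below the embryonic ones, and its P7 mean was 7.40-fold the adult mean.

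Cst7 (chromosome 2, 150570415 to 150578944, plus strand) encodes cystatin F, an inhibitor of lysosomal cysteine proteases. It was close to absent in the embryo, at 2.73, 0.354 and 0.874 CPM, and stood at 57.8, 23.2 and 41.3 CPM at P7 and 2.11, 0.895 and 11.2 at P60. P60 replicate 3 was the highest library outside P7, and the P7 mean was 30.9-fold the e16.5 mean and 8.62-fold the P60 mean. Without e16.5 replicate 1 the first was 66.4-fold, and without P60 replicate 3 the second was 27.1-fold. Whole retina at e16.5 held 0 counts in 3 libraries, which allows up to 0.0474 CPM over the group (3 counts, counting error only), so that microglia of that age were at least 27.9-fold higher, or at least 12.96-fold without e16.5 replicate 1.

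Among genes of endosome and lysosome membranes, Cd68 (ENSMUSG00000018774, chromosome 11, 69664213 to 69666153, minus strand), the glycoprotein used as a stain for phagocytic macrophages, had the highest level per length. Its libraries held 281, 315 and 218 CPM at e16.5, 821, 548 and 686 at P7 and 299.8, 307 and 308 at P60. The adult libraries were nearly equal and fell within the embryonic range. Cd63, a tetraspanin of late endosomes, stood at 68.3, 62.8 and 60.02 CPM, 179.7, 118 and 199.6 and 66.2, 49.9 and 26.7 CPM at the 3 ages. Rab11fip5, an adaptor of the recycling endosome, stood at 43.7, 65.1 and 71.97 CPM, 214, 179 and 263 and 86.6, 65.9 and 69.2 CPM. Both had overlapping embryonic and adult libraries.

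Rab7b (ENSMUSG00000052688, chromosome 1, 131688695 to 131715439, plus strand) encodes a small GTPase of late endosomes and had, over all libraries, the largest ratio of P7 to adult mean. It stood at 11.9, 11.5 and 17.9 CPM at e16.5, 52.1, 28.7 and 35.99 at P7 and 3.78, 0.199 and 0.182 at P60, so that the adult libraries were all below the embryonic ones and P60 replicate 1 stood far above the other two. The P7 mean was 2.83-fold that at e16.5 and 28.1-fold that at P60 (205-fold without P60 replicate 1). On the authors' FPKM scale the e16.5 and P7 means were 13.3 ± 8.46 and 11.6 ± 5.78 (SD, n = 3), since the length behind its FPKM differed up to 9.14-fold between microglia libraries. Its height over e16.5 was thus seen in counts and not in values per length.

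The pseudogenes are given beside the genes they resemble, since reads can be split between them. Gpr137b-ps stood at 68.2, 67.5 and 45.2 CPM at e16.5, 198, 151 and 168 at P7 and 53.6, 22.3 and 42.6 at P60. Gpr137b, which encodes a lysosomal membrane protein, averaged 39.1, 109 and 52.9 CPM and missed membership by its retina ratio of 2.41. Gm15487 stood at 8.46, 19.1 and 14.04 CPM, 25.04, 32.3 and 87.4 and 13.7, 23.6 and 6.63 CPM, with P7 replicate 3 far above the other P7 libraries. Atp6v0c, the proton pump gene it resembles, averaged 185, 197 and 88.3 CPM and was not above its e16.5 range at P7.

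Recognition and signalling were represented by 4 genes. Axl (chromosome 7, 25757273 to 25788705, minus strand) encodes a receptor kinase that binds phosphatidylserine on dying cells through the bridging protein GAS6. It stood at 254, 192 and 145 CPM at e16.5, 502, 329 and 354 at P7 and 246, 121 and 152 at P60, with overlap between embryo and adult. Of the other genes of this system, the receptor Mertk averaged 824, 1135 and 1054 CPM, the receptor Tyro3 no more than 4.22 CPM at any age, and the bridging proteins Gas6 57.2, 118 and 41.1 CPM and Pros1 326, 410.5 and 350.3 CPM. Of these 5 genes Axl alone met the P7 conditions. Anxa5, which encodes a calcium-dependent binder of phosphatidylserine, was at 25.4, 6.44 and 36.2 CPM at e16.5, 72.6, 89.7 and 72.3 at P7 and 32.5, 19.6 and 6.81 at P60.

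Fgr, a Src family kinase of myeloid cells, stood at 14.6, 3.89 and 3.73 CPM at e16.5, 31.6, 33.3 and 30.5 at P7 and 11.005, 8.25 and 7.18 at P60. Its P7 libraries differed by little in CPM (coefficient of variation 4.37%), and e16.5 replicate 1 was the highest of the others. On the authors' FPKM scale Fgr stood at 17.3, 16.9 and 17.0 at P7 and 18.6, 20.5 and 3.30 at P60. The P7 mean was 1.21-fold the P60 mean on that scale, and the length behind it differed up to 6.93-fold between microglia libraries. Whole retina held 2 counts of Fgr at P7, and the ratio of 387 there had a 95% counting interval of 107 to 3199. Rap2b, a Ras-like GTPase, stood at 34.1, 49.9 and 18.5 CPM, 74.6, 67.5 and 76.98 and 21.7, 6.56 and 64.8 CPM, with P60 replicate 3 close to the P7 range.

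The actin group held 3 genes. Fmn1, a formin that elongates actin filaments, stood at 62.5, 40.3 and 26.9 CPM at e16.5, 122, 127 and 111 at P7 and 50.5, 83.8 and 24.8 at P60. In FPKM its P7 mean was 1.16-fold the P60 mean, with 26.9, 33.4 and 17.8 at P7 and 5.34, 56.2 and 6.02 at P60. Gas7, an F-BAR protein that shapes membranes and actin, stood at 45.5, 18.5 and 37.6 CPM, 174, 152 and 180.1 and 10.2, 36.99 and 47.8 CPM, and its P7 mean was 4.98-fold and 5.33-fold the means of e16.5 and P60. Fblim1, a filamin-binding adaptor of cell adhesions, stood at 16.2, 13.8 and 17.9 CPM, 56.5, 63.2 and 52.6 and 26.1, 33.01 and 11.3 CPM. In all 3 the P7 libraries lay close together in CPM and the adult libraries were the most spread.

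Mitf (ENSMUSG00000035158, chromosome 6, 97807052 to 98021349, plus strand) was the member of the MITF family among the 30 genes. It stood at 36.8, 37.1 and 43.5 CPM at e16.5, 95.7, 135 and 126 at P7 and 46.9, 39.5 and 23.7 at P60, and unlike most of the genes its P7 replicate 2 was the highest library. The P7 mean was 3.04-fold the e16.5 mean and 3.24-fold the P60 mean. None of its 3 relatives met the P7 conditions. Tfeb averaged 15.9, 13.4 and 11.3 CPM, Tfe3 114, 124 and 138 CPM, and Tfec 4.79, 8.38 and 1.14 CPM. Bhlhe40, a helix-loop-helix repressor, was at 3.26, 3.96 and 13.8 CPM at e16.5, 30.6, 59.4 and 36.9 at P7 and 13.9, 15.7 and 2.63 at P60, with P7 replicate 2 again the highest.

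The metabolic and transport genes include Selenop (ENSMUSG00000064373, chromosome 15, 3268547 to 3280508, plus strand), which encodes a secreted carrier of selenium. Its level per length at P7 was the highest of this group. It stood at 1039, 809 and 1092 CPM at e16.5, 3843, 2003 and 2924 at P7 and 983, 675 and 770.0 at P60, and the embryonic and adult libraries overlapped. Psat1 (ENSMUSG00000024640, chromosome 19, 15904678 to 15947337, minus strand), an aminotransferase of serine synthesis, stood at 82.3, 68.2 and 36.9 CPM at e16.5, 234, 212 and 400.2 at P7 and 32.9, 24.1 and 4.54 at P60. Every adult library of Psat1 was below every embryonic one, and the P7 mean was 13.8-fold the adult mean. Ank, a membrane exporter linked to extracellular pyrophosphate, stood at 56.3, 27.04 and 35.1 CPM, 179, 98.4 and 154 and 68.5, 26.3 and 18.3 CPM at the 3 ages. Tmem38b, an ion channel of the endoplasmic reticulum, stood at 16.1, 6.23 and 15.7 CPM, 20.97, 22.7 and 39.4 and 20.01, 8.45 and 3.54 CPM, with P60 replicate 1 just below the lowest P7 library.

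The other genes encode membrane and adaptor proteins. Itm2b (chromosome 14, 73362226 to 73385289, minus strand), a membrane protein that binds the amyloid precursor protein, stood at 681, 918 and 801 CPM at e16.5, 1851, 1370.1 and 2239 at P7 and 1323, 696 and 702 at P60. P60 replicate 1 reached nearly the level of P7 replicate 2. Apbb2, an adaptor of the tail of the same precursor, stood at 156, 109 and 65.03 CPM, 285, 288 and 289 and 127, 122 and 160.3 CPM. Its 3 P7 libraries were nearly equal in CPM (coefficient of variation 0.750%). On the authors' FPKM scale they stood at 668, 1072 and 1275. The length behind its FPKM differed up to 5.03-fold between microglia libraries. Zdhhc24, of the palmitoyltransferase family, was at 28.99, 26.1 and 36.2 CPM, 45.1, 54.9 and 101 and 25.8, 10.4 and 10.4 CPM, and Etl4, known from skeletal development, at 28.6, 8.49 and 13.6 CPM, 84.8, 105 and 107 and 33.2, 52.8 and 16.5 CPM. The P7 mean of AF529169 was 31.6-fold the e16.5 mean, near the ratio of Cst7, with 0.705, 0.637 and 3.67 CPM at e16.5, 62.4, 61.6 and 34.7 at P7 and 2.001, 9.45 and 7.27 at P60. Without e16.5 replicate 3 it was 78.8-fold, and the order of the pair turns with the embryonic library left out.

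Per length, the order of the genes at P7 was much the same at the top. On the authors' FPKM scale AC034099.1 stood at 8796 ± 3680.4, Ctsd at 2663 ± 817, Selenop at 2038 ± 809.96 and Itm2b at 1803 ± 591 (SD, n = 3). Lyz2 followed at 1485 ± 567, Cd68 at 1248 ± 265 and Apbb2 at 1005 ± 309 FPKM. From Ctsd to Apbb2, each gene differed from the next by less than the spread of its libraries. The lowest was AF529169 at 8.18 ± 2.10 FPKM.

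The rule did not compare P60 with e16.5, but it held both ages below P7, so that a gene far higher at either of them could hardly enter. The counts of this contrast are thus partly fixed by the choice of genes, and nothing particular to the 30 is read from them beside the values for all genes. In edgeR's quasi-likelihood test on counts, adjusted over all genes by the Benjamini-Hochberg method, 0 of the 30 passed an adjusted p of 0.05, while 3.36% of all 16019 genes tested did, 0.861% higher and 2.5% lower at P60. At an unadjusted p under 0.05 there were 4 of the 30, Rab7b, Psat1, Zdhhc24 and Pld3, against 20.1% of all genes, and all 4 were lower at P60. DESeq2 called 2, Psat1 and Rab7b, against 12.3% of all genes, and limma-voom called none. In these 4 genes every P60 library lay below every e16.5 library, an arrangement found in 9.84% of the genes with at least 1 CPM. No member had all P60 libraries above all e16.5 libraries, against 16% of genes, and the libraries of the 2 ages overlapped for 26. The median log2 fold change of the 30 was −0.30 (all genes 0.06). The sign was negative for 21 of the 30, or for 18 with libraries scaled by total counts alone, which moved the median of all genes by 0.19.

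The lowest adjusted p in edgeR was that of Rab7b, with a log2 fold change of −3.58 (SE 0.99, adjusted p = 0.0728). The alternatives gave adjusted p values from 0.000734 to 0.191 for it, and it passed with DESeq2 (−3.64, adjusted p = 0.000734), with gene lengths as an offset in edgeR (−5.62, adjusted p = 0.0475), with the replicate number as a block in edgeR (−4.35, adjusted p = 0.0406) and without P60 replicate 1 in edgeR (−6.30, adjusted p = 0.00488). Psat1 had a log2 fold change of −1.82 (SE 0.57, edgeR adjusted p = 0.108), and passed in DESeq2 (adjusted p = 0.0138). Zdhhc24 stood at −1.20 (SE 0.51), Pld3 at −1.04 (SE 0.38) and Gpr137b-ps at −0.79 (SE 0.37), with edgeR adjusted p of 0.214, 0.153 and 0.261. Toward the adult side the largest differences were those of Cst7 (1.80, SE 0.98), AF529169 (1.63, SE 0.80) and Etl4 (0.83, SE 0.49), with edgeR adjusted p of 0.329, 0.281 and 0.363. The difference of Cst7 rested on P60 replicate 3, without which it was −0.00243. For Cd68, Itm2b and Rab11fip5 it lay between −0.04 and 0.07 on the log2 scale. In the authors' deposited table Rab7b was the member called between these ages, against 15.4% of all genes.

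**Figure D3:**
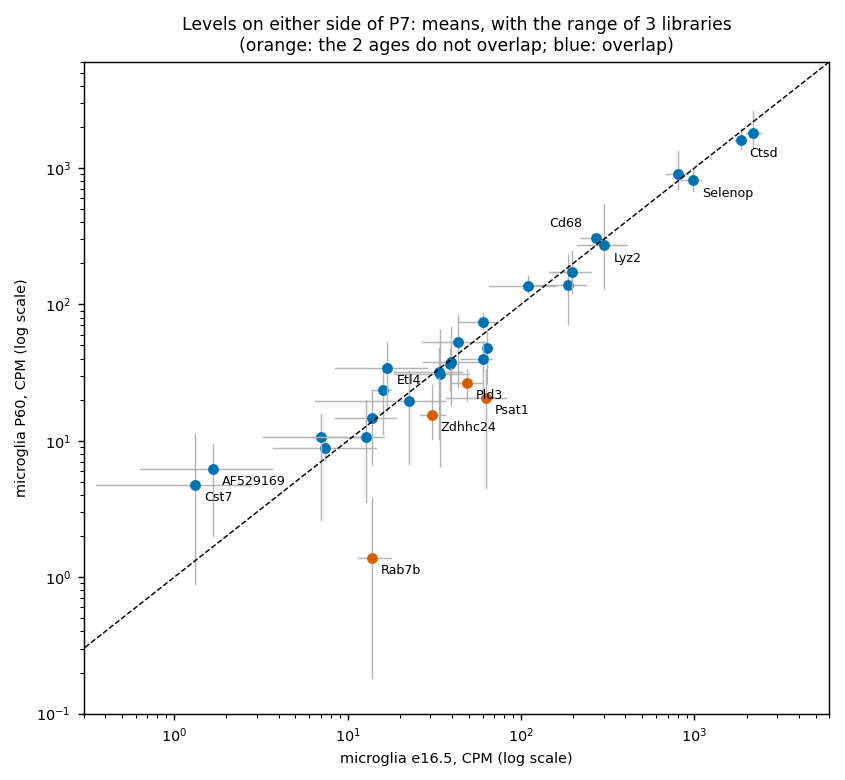
Mean CPM at P60 against mean CPM at e16.5 in microglia for the 30 genes, both axes logarithmic, with the line of equality. Most genes lie near the line; Rab7b and Psat1 lie below it and Cst7 and AF529169 above it.

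The rule used no whole retina library of e16.5, but it asked for a height over whole retina at P7, which favours genes of microglia, so that an excess of genes higher in microglia at e16.5 is partly built in and is given as a description. Lyz2, Cd68 and Selenop were 629-, 428- and 68.4-fold higher in sorted microglia than in whole retina at this age, whereas Psat1 was 2.23-fold lower. The labels give only numbers to the 3 retina libraries of e16.5, so that p-values here measure the spread between libraries, which may be technical. In edgeR, 22 of the 29 genes tested were higher in microglia, against 33.1% of all 16140 genes, and 1 was lower, against 30.1%. Cst7 was left out by the filter on low counts. The microglia libraries lay wholly above the retina libraries for 22 genes (31.7% of genes), wholly below for 3 (45.5%) and overlapped for 5. The median log2 fold change was 2.45 (all genes −0.13, or −0.51 with total counts alone), and the signs, 25 positive and 4 negative, were the same under both scalings.

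The largest differences were those of Lyz2, from 0.537, 0.5004 and 0.862 CPM in retina (log2 fold change 9.30, SE 0.45, edgeR adjusted p = 1.15e-05), and Cd68, from 0.879, 0.773 and 0.814 CPM (8.74, SE 0.26, edgeR adjusted p = 3.43e-06). Fgr had 2 counts over the 3 retina libraries, a ratio of 235 with a 95% counting interval of 65.0 to 1939, or a ratio of 121 without microglia replicate 1 (edgeR adjusted p = 0.00139). Rab7b (6.65, SE 0.75), AC034099.1 (6.40, SE 0.22) and Selenop (6.10, SE 0.25) followed. Mitf was 20.1-fold higher (log2 fold change 4.33, SE 0.38, edgeR adjusted p = 0.000136), at 2.101, 2.09 and 3.55 CPM in retina, and Ctsd 16.3-fold (4.03, SE 0.19, edgeR adjusted p = 1.01e-05). In each of these genes the e16.5 microglia libraries lay above all retina libraries. That they lay below all P7 microglia libraries was a condition of the rule.

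Psat1 ran the other way, with 194, 163 and 181 CPM in the retina libraries against 82.3, 68.2 and 36.9 CPM in microglia (log2 fold change −1.16, SE 0.26, edgeR adjusted p = 0.00668, range over alternatives 0.000208 to 0.0242). At P7 the order was turned, with 282 CPM on average in microglia and 68.6 CPM in retina. The rule asked for this P7 order in every member, so the turn follows from the choice of genes. Not called were Tmem38b (1.28, SE 0.49, edgeR adjusted p = 0.0566), AF529169 (1.42, SE 0.82), Etl4 (0.57, SE 0.45), Fblim1 (−0.00, SE 0.31), Anxa5 (−0.35, SE 0.58) and Apbb2 (−0.42, SE 0.25). Apbb2 turned with the unit: with gene lengths as an offset its log2 fold change was 2.44 (edgeR adjusted p = 0.00115), and the length behind its FPKM averaged 348 bases in microglia and 2168 in retina at e16.5. The calls of Ank (0.79, SE 0.28), Rap2b and Bhlhe40 were each lost when any of the 3 retina libraries was left out, with edgeR adjusted p of 0.151 to 0.178, 0.0505 to 0.0660 and 0.0806 to 0.0981. The call of Ank was also lost in edgeR with total counts alone (adjusted p = 0.279), with no filter (0.102), with the replicate block (0.119) and without microglia replicate 1 (0.115) or 3 (0.0739). That of Bhlhe40 was also lost with the block (edgeR adjusted p = 0.0763) and with gene lengths (0.141). Gas7 was lost without retina replicate 1 or 2 (edgeR adjusted p = 0.0530 and 0.0533). Pld3 was lost without retina replicate 2 (edgeR adjusted p = 0.0609), with total counts alone (0.0850) and with gene lengths (0.0575). The authors' deposited table called 19 of the 30 higher in microglia at e16.5, Apbb2 among them, and none lower, against 50.3% of all genes called.

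**Figure D4:**
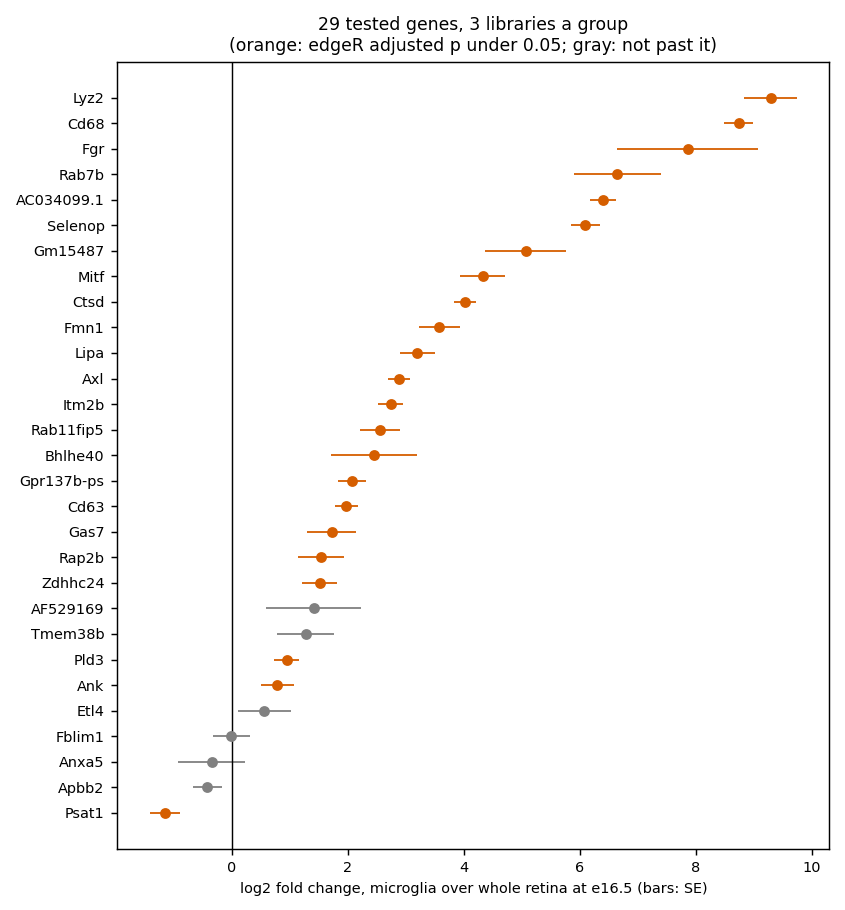
Log2 fold change of microglia over whole retina at e16.5 from edgeR for the 29 genes tested, with bars of 1 SE and colour for the call. Lyz2, Cd68 and Fgr lie farthest to the right, 6 genes are not called, and Psat1 is the gene called lower in microglia.

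In the adult, some of the 30 genes were more abundant in whole retina than in microglia. All 3 P60 microglia libraries lay above the single P60 retina library for 19 genes, all 3 lay below it for 7, and it fell inside their range for 4, where 33.7% of all genes lay above and 42.4% below. The height over whole retina at P7 that the rule asked for bears on these counts too. The 7 were Gas7 (retina over microglia 4.92-fold), Fmn1 (3.69-fold), Bhlhe40 (3.68-fold), Pld3 (2.76-fold), Anxa5 (2.60-fold), Ank (2.04-fold) and Psat1 (1.84-fold). In the retina libraries Fmn1 stood at 4.54, 4.82 and 4.46 CPM in the embryo, 35.8 at P7 and 196 in the adult. Gas7 stood there at 10.9, 10.8 and 18.3, 51.1 and 156 CPM. For 3 of the 30 genes, Pld3, Zdhhc24 and Rab7b, the difference between P60 and e16.5 ran opposite ways in microglia and whole retina without overlap, an arrangement found in 5.04% of all genes. Whole retina has 1 library at P7 and 1 at P60, so that these differences carry no error.

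**Figure D5:**
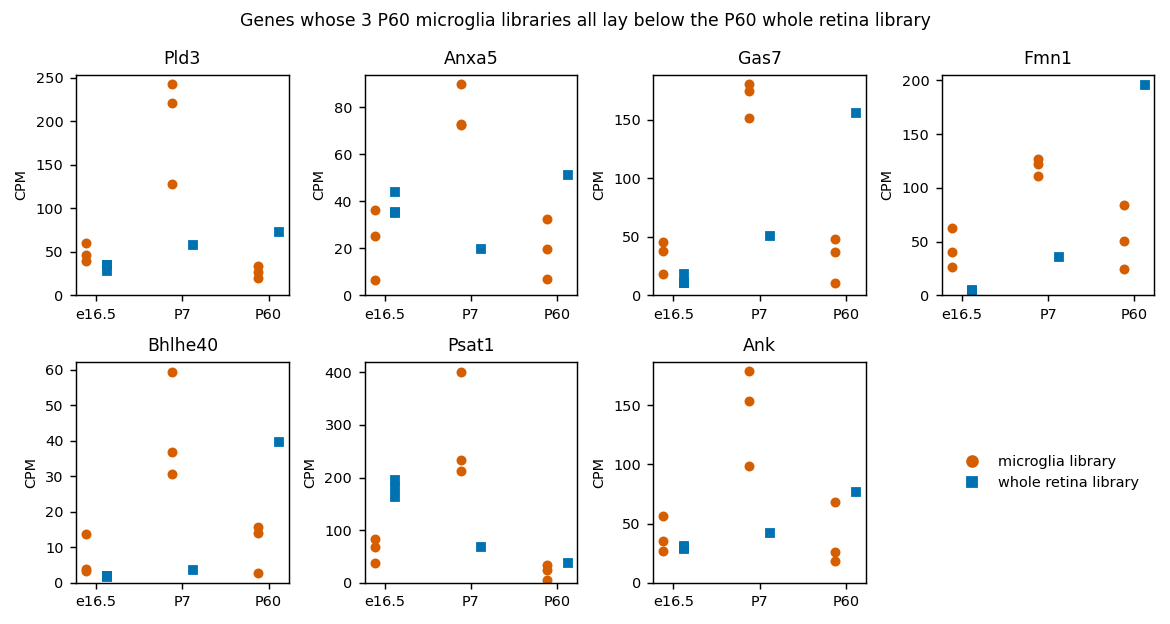
CPM in the microglia and whole retina libraries at e16.5, P7 and P60 for 7 genes. In these genes the P60 retina value lies above every P60 microglia library. The ratio of the retina value to the microglia mean at P60 is largest for Gas7, Fmn1 and Bhlhe40.

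The other genes of the same pathways are counted from fixed lists, the 30 genes left out. Of 61 further lysosome and endosome genes tested, 1 was higher at P7 than at e16.5 in edgeR (Ctsb, which had been set aside by name), where 0.2% of all genes were called, 0.131% higher and 0.0687% lower. Against P60, 6 were higher at P7 (Atp6v1a, Gusb, Lamp1 and Grn, besides Ctsb and Ctsl, which had met the P7 conditions and been set aside by name), and none lower, where 1.35% of all genes were called, 1.09% higher and 0.262% lower. Lamp1, a glycoprotein of the lysosome membrane, averaged 651 CPM in the embryo, 1149.6 at P7 and 423 in the adult (log2 fold change of P7 over P60 1.68, SE 0.25, edgeR adjusted p = 0.00986). Grn, the progranulin gene, averaged 1134, 2057 and 761 CPM (1.65, SE 0.29, edgeR adjusted p = 0.0222). The median log2 fold change of P7 over P60 was 0.79 for these 61 genes and −0.07 for all genes. Between P60 and e16.5, Gusb and Ctsb were lower in the adult.

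Of 42 further phagocytosis and recognition genes, edgeR called 0 between P7 and either other age (8 and 12 at an unadjusted p under 0.05 against e16.5 and P60). DESeq2 called 0 and 8 of them and limma-voom 0 and 1. Of 78 further macrophage transcription factors, 0 differed between P7 and e16.5 in edgeR (10 at an unadjusted p under 0.05, 3 with DESeq2, 0 with limma-voom). Between P7 and P60, Mycn was higher at P7 and Cebpd and Klf4 were lower. Of 76 further actin and myosin genes, Myo1e, also set aside by name, was among those called, higher at P7 than at either other age, and Cfl1 and Actb were higher at P7 than at P60. At e16.5, 50 of the 61 lysosome genes and 33 of 41 phagocytosis genes were higher in microglia than in whole retina, against 33.1% of all genes.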

How the data were processed

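The deposited table pairs each of 20902 genes with values for 14 libraries. Its counts are whole numbers per gene as deposited, and they were treated as estimated counts because the submitters' processing notes list Salmon 0.9.1, which estimates them. The FPKM values were deposited by the authors per gene and library and divide counts by depth and by a gene length that differs between libraries. The log2 fold changes and adjusted p-values deposited by the authors belong to their own comparisons. DESeq2 1.20.0 and GRCm38.p6 are also in the submitters' processing notes, without roles, so which tool made which column is not known here.

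CPM was computed from column totals. Tests used edgeR 4.0.16 (TMM, filterByExpr, quasi-likelihood F test, Benjamini-Hochberg adjustment, threshold 0.05) in R 4.3.3, checked on simulated data. The 9 microglia libraries shared a fit over 16019 genes, and the 6 libraries of e16.5 had a fit over 16140. Alternatives were DESeq2 1.42.0, limma-voom (limma 3.58.1), other scalings and filters, gene lengths as an offset, a replicate block and each library left out. No 2 libraries of the same group held the same values, and libraries of different groups were not compared in this way.

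Positions come from a GRCm38 annotation that holds all 30 genes, and promoter sequences from RefSeq. The members, gene lists, roles and tests were chosen with earlier results of these data known. Genes named singly were the 12 highest at P7, the 12 with the largest height over the other ages, the 5 largest differences on each side of each test, members of functional lists and the genes next to each limit. Others were named to show every member. Folds of P7 over the other ages without single libraries were chosen after seeing the data. Replicate numbers were not taken as pairs. The result of 1 further gene is not reported here.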

Additional observations from a re-analysis of the deposited data

Results flagged for a closer look

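For 3 of the 30 genes the difference between P60 and e16.5 had opposite signs in microglia and in whole retina. Within each tissue the libraries of these ages did not overlap. Among all genes with at least 1 CPM in both tissues at either age, 5.04% had such an arrangement, so that 3 of 30 is given as a description. The log2 ratio of mean CPM, P60 over e16.5, was −0.87 in microglia and 1.16 in whole retina for Pld3, −0.97 and 0.10 for Zdhhc24, and −3.31 and 2.99 for Rab7b. The difference between the tissues was not tested, because whole retina has 1 library at P60. For Zdhhc24 the retina side was a library of 15.04 CPM at P60 above at most 14.75 CPM at e16.5. For Rab7b the retina values were at most 1.48 CPM.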

How the results depend on the processing

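Between P60 and e16.5 in microglia, the members called numbered 0 in edgeR, 2 with DESeq2, 1 with gene lengths as an offset and 1 with a replicate block, and 0 to 1 with each library left out. Same-numbered libraries correlated in their deviations from the group means by 0.0381 to 0.286 between ages and by 0.00473 to 0.0169 between microglia and retina. For libraries of unlike number the range was −0.216 to 0.0544 between ages and −0.0164 to 0.0107 between microglia and retina. Between P7 and either other age, all same-numbered pairs lay above all pairs of unlike number. What the numbers share was not tested. The main fits did not use them as pairs, and the replicate block is given as an alternative. Over all genes, the calls between P7 and e16.5 numbered 32, and 58 with a filter of 5 CPM, 328 with DESeq2, 60 with limma-voom and 1 with gene lengths (0 to 61 with each library left out). Between P7 and P60 they numbered 217, and 1249 with DESeq2, 367 with the replicate block and 66 with gene lengths (41 to 217). Between P60 and e16.5 they numbered 538, and 1902 with DESeq2, 757 with the replicate block, 258 with gene lengths and 227 with only the ages compared (174 to 530.0). Total counts alone gave 189 higher and 301 lower at P60 than at e16.5, in place of 138 and 400.0, and 99 higher and 61 lower at P7 than at P60, in place of 175 and 42. At e16.5, microglia against whole retina, 18 to 24 members were higher and 1 to 2 lower with each library left out, and 8604 to 12088 of all genes were called. The number of members was 48 with TMM scaling, 70 with a 1.5-fold and 12 with a 3-fold limit over the other ages, 16 with a 10-fold limit over retina and 54 with no retina limit (29 to 53 with each library left out).

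Signs turned for genes that were not called. Between P60 and e16.5, Bhlhe40 ranged from −0.084 to 1.36 and Cst7 from −0.00243 to 2.70 with each library left out. Between microglia and retina, with gene lengths, Apbb2 stood at 2.44, Etl4 at −0.10 and Fblim1 at 0.53, and Fblim1 stood at 0.21 with the 5 CPM filter and 0.00278 with limma-voom. With each library left out Etl4 ranged from −0.022 to 0.77, Fblim1 from −0.27 to 0.027 and AF529169 from −0.14 to 1.68. The cause was not tested. With 3 libraries a group, and 1 for whole retina after birth, small differences were not detectable.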
